A study of Mus musculus with 24 samples.

Results

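The genes described here are 42 genes of the G2 phase and of mitosis, measured as messenger RNA in a mouse tumour cell line in which microRNAs (miRNAs) were switched on with doxycycline (DOX). They were taken from a list of mouse gene symbols, matched by symbol to the Ensembl identifiers of the deposited count table. No measured value entered that rule, but the list was chosen with earlier results of these data known. All 42 symbols were found among the 46517 gene entries of the table, and all 42 were among the 14866 genes with enough counts to be tested. The cells were βTC3, an established insulinoma line from mouse pancreatic beta cells. Per the labels, the lines carried the plasmid PB-31 alone (control line), PB-31 with the miR-23b cluster (miR-23b line) or PB-31 with miR-137 (miR-137 line). Each line was grown for 7 d in plain DMEM (no DOX) or in DMEM with 2 µg/ml DOX (7 d DOX). The 2 miRNA lines were also grown for 7 d with DOX and then for 7 d in plain DMEM (DOX withdrawn). Cells were plated in triplicate, so that each of the 8 groups had 3 libraries (24 in total). The labels name no withdrawn control culture, no untreated culture as old as the withdrawn ones, and no library date or run. They do not say whether a line was 1 clone, nor whether the triplicates were independent cultures, so a p-value measures the spread between these libraries, which may be technical. In these bulk libraries, fewer cells in G2 or mitosis and less of an RNA in each such cell cannot be told apart.

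Mitosis is driven by CDK1 bound to cyclins A and B, held back by inhibitory phosphorylation until CDC25 phosphatases remove it. Aurora and Polo kinases build the spindle, kinetochores tie chromosomes to it, and the spindle checkpoint holds back the APC/C, a ubiquitin ligase switched on by CDC20, until every chromosome is attached. Most of these genes are transcribed in a wave that peaks in G2, which B-MYB, FOXM1 and the MuvB complex drive through promoter elements named CHR. Many such promoters also hold elements named CCAAT. Because of this wave, the summed RNA of these genes is a common readout of how many cells in a population are cycling. A miRNA lowers an RNA by pairing its seed, bases 2 to 8, with the 3′ untranslated region (3′ UTR).

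Of the mature miRNAs that DOX was to induce, 3 are given first, because sites for their seeds can be read in the mitotic RNAs. The miR-23b cluster holds miR-23b, miR-27b and miR-24. The reference used held no mature miR-23b-3p entry, so its sequence is not shown and matches to its seed were not searched. The sequences are from RefSeq (GRCm38.p6), with the seed in capitals, at chr13:63300760-63300780 (+) for miR-27b-3p, chr13:63301251-63301272 (+) for miR-24-3p and chr3:118433901-118433923 (+) for miR-137-3p.
miR-27b-3p: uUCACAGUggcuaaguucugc
miR-24-3p: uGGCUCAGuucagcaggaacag
miR-137-3p: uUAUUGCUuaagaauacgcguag
The 3 seeds differ from each other, so matches were counted for each miRNA.

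Matches to these seeds were looked for in the 3′ UTR of 1 transcript per gene (GENCODE M21, GRCm38). A match was a 7-base complement of bases 2 to 8 (7mer-m8), a 6-base complement of bases 2 to 7 followed by A (7mer-A1), or both (8mer). The 3 members below are shown because each fell in the miR-23b line under DOX and holds a match to a miRNA of the cluster. The capitals mark the match, at chr2:172356750-172356779 (-) for Aurka, chr2:131198041-131198070 (+) for Cdc25b and chr7:122169621-122169650 (+) for Plk1.
Aurka, miR-27b-3p 7mer-m8: gccaccgtgcaACTGTGAgaaacaccctat
Cdc25b, miR-27b-3p 8mer: ccatcctcactACTGTGAAccccagagcct
Plk1, miR-24-3p 7mer-m8: ctctgctagctCTGAGCCtgcactgtaggc
The shares of mitotic RNAs with such matches lay below those of all genes, with no test made. For miR-27b-3p, 11 of 42 members (26.2%) held one, against 29.6% of the 12977 tested genes with a 3′ UTR. For miR-24-3p the shares were 7 of 42 (16.7%) and 26.5%, and for miR-137-3p they were 3 of 42 (7.14%) and 15.6%. The mitotic 3′ UTRs were also shorter, with a median of 735.5 bases against 1192. A match of this length is a description of the letters, and binding was not measured.

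Promoters are shown for 4 members whose patterns differed: Aurka, which fell in both miRNA lines, Ccnf, which rose in the control and miR-137 lines, Nuf2, which rose in the control and miR-23b lines, and Spc25, which fell in all 3. Each run is the 250 bases before the start of the gene (RefSeq, GRCm38.p6), 5′ to 3′ on the gene's strand. Capitals mark CHR elements (TTTGAA or TTCGAA) and CCAAT elements, searched on both strands. The runs lie at chr2:172370571-172370820 (-) for Aurka, chr17:24251410-24251659 (-) for Ccnf, chr1:169531465-169531714 (-) for Nuf2 and chr2:69206214-69206463 (-) for Spc25.
Aurka: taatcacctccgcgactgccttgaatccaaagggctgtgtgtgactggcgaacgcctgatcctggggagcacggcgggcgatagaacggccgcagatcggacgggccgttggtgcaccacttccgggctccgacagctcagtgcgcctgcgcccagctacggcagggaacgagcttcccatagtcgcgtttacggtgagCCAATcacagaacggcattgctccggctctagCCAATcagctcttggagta
Ccnf: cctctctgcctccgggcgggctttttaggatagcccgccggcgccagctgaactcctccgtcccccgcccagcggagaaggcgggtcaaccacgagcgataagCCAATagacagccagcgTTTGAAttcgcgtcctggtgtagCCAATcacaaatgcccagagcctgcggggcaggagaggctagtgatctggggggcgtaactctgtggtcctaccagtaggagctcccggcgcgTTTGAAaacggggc
Nuf2: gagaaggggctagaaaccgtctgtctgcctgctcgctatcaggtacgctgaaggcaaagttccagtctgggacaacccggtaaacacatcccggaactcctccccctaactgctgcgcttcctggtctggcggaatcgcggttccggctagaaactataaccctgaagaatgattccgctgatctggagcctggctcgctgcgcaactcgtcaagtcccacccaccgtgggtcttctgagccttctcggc
Spc25: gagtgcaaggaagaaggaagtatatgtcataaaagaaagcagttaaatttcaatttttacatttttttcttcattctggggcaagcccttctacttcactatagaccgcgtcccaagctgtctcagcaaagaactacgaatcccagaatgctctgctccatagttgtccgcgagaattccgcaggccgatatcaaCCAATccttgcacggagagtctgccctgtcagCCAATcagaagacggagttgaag
Aurka and Spc25 held 2 CCAAT elements each in the run shown and a CHR element in the 50 bases after the start. Ccnf held 2 of each element, and the Nuf2 window held none. Of the 35 members with a promoter in the table, 29 (82.9%) held a CHR element and 28 (80.0%) a CCAAT element in the 300 bases around the start, against 19.2% and 37.4% of all 32851 promoters of that length. Both elements stood in 26 members (74.3%) and in 7.52% of all promoters. Birc5, Mad2l1, Nuf2 and Nusap1 held neither. No promoter is shown for Aurkb, Incenp, Foxm1, Cdc25c, Kif20a, Ccna2 and Tpx2.

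Library totals ran from 15759849 to 24144737 gene counts, of which the 42 members took 219726 to 380911. The induction checked out against the labels. The Mir23b locus stood at 53.18 ± 3.169 CPM (counts scaled to one common library total, given as mean ± SD over 3 libraries) in the miR-23b line at 7 d DOX and at no more than 0.1538 as a group mean elsewhere. Gm26871, the transcript at the miR-137 locus, stood at 122.7 ± 3.111 CPM in the miR-137 line at 7 d DOX and between 2.169 and 5.375 as a group mean elsewhere. In both lines the loci were back near the untreated level after withdrawal. The 7 beta cell markers summed to 14170 to 18480 CPM per library, while 6 fibroblast markers summed to at most 4.584, 5 leukocyte markers to at most 4.911, 4 endothelial markers to at most 1.155 and 5 exocrine markers to at most 1.204, with Cd3e, Prss2 and Amy2a5 at 0 in every library. The beta cell sum was lowest in the miR-23b line at 7 d DOX (14170 to 14800) and highest in that line after withdrawal (17920 to 18480). Its part in the mitotic values was not tested. The control libraries at 7 d DOX held counts for 20898 to 21066 genes, more than every other library (at most 20336).

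All 42 members were well expressed in every group. The lowest count of any member in any library was 843, and the median member lay at the 92.97 percentile of the levels of all genes tested. Only levels per length can be set against each other between genes. On the TPM values that the authors deposited, the mean over 24 libraries was 2694.3 for Spc25, a subunit of the NDC80 kinetochore complex, 782.23 for Racgap1, a protein of the spindle midzone, 656.0 for Top2a, the topoisomerase that untangles sister chromosomes, and 490.67 for Cdk1, the mitotic kinase itself. At the other end stood Ccnf, the F-box protein cyclin F, at 16.938, Kif23, a midzone kinesin, at 16.331, and Cdc25c, a CDK1-activating phosphatase, at 13.588. The order depended on the length used. Mki67, the proliferation marker that coats mitotic chromosomes, stood at 131.12 TPM but at 272.01 CPM per kb of annotated exons, second to Spc25 at 371.26 on that scale.

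**Figure D1:**
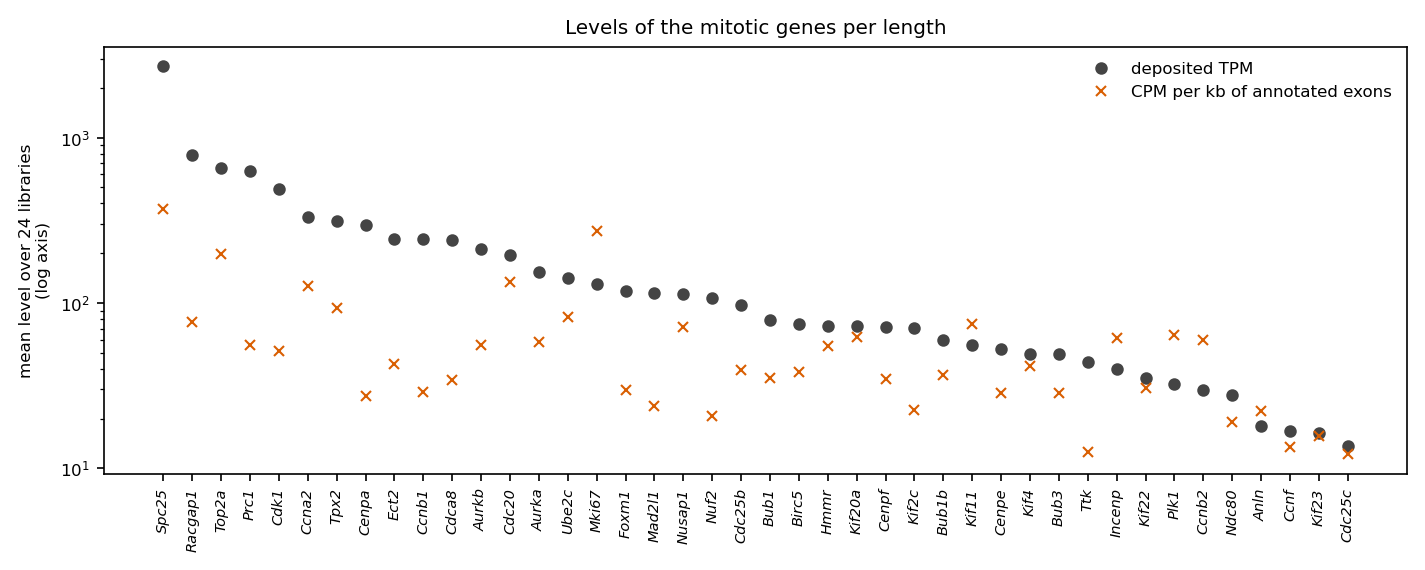
Mean level over 24 libraries (vertical axis, log scale) of each of the 42 mitotic genes (horizontal axis), as deposited TPM (circles) and as CPM per kb of annotated exons (crosses). Spc25 has the highest value on both scales, at 2694.3 TPM and 371.26 CPM per kb, and Cdc25c the lowest TPM at 13.588.

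The mitotic genes moved little over the 8 groups. The ratio of the highest to the lowest group mean had a median of 1.212 over the members, from 1.086 for Cenpf, a kinetochore and nuclear matrix protein, to 1.41 for Ccnf. It reached 0.32 on the log2 scale in 10 of 42 members (23.8%) and in 65.5% of all genes tested. The order of the groups depended on the scale, and is given first by the members' mean log2 CPM. It was highest in the control line at 7 d DOX (7.9301 ± 0.0049723, SD, n = 3) and in the miR-137 line after withdrawal (7.9292 ± 0.03241), 2 groups that do not differ beyond their spread. The miR-23b line after withdrawal followed at 7.8573 ± 0.014665 and the untreated control line at 7.8028 ± 0.013765. The miR-137 line at 7 d DOX (7.7845 ± 0.016082), the untreated miR-23b line (7.7668 ± 0.016281), the untreated miR-137 line (7.7571 ± 0.01798) and the miR-23b line at 7 d DOX (7.743 ± 0.0096707) lay lowest, and the libraries of each of these 4 groups overlapped those of the next. On mean log2 TPM the same 2 groups were highest (6.7961 and 6.7444). The miR-23b line at 7 d DOX was not lowest there. It stood at 6.6851 ± 0.0080308, against 6.6667 ± 0.0027683 in the untreated control line and 6.5999 ± 0.014386 in the untreated miR-23b line. As a share of all gene counts, the members took 1.565% in the control line at 7 d DOX and 1.5697% in the withdrawn miR-137 line. The other 6 groups lay at 1.3777% to 1.4843%, with the miR-23b line at 1.4047% at 7 d DOX and 1.379% untreated.

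**Figure D2:**
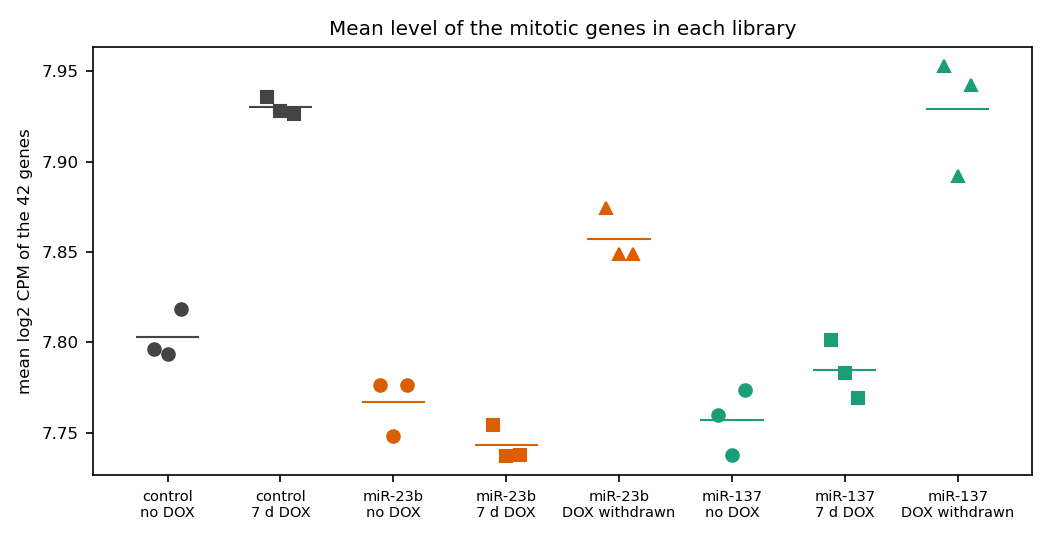
Mean log2 CPM of the 42 mitotic genes (vertical axis) in each of 24 libraries (points) by group (horizontal axis), with the group mean as a line. The control line at 7 d DOX (7.9265 to 7.9358) and the withdrawn miR-137 line (7.8922 to 7.9527) lie above the libraries of the other 6 groups.

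Without DOX the 3 lines were close to each other in size of difference, but most members lay slightly below the control line. Called or not, 35 of 42 were below it in the miR-23b line (median log2 -0.03). In the miR-137 line 36 of 42 were (median log2 -0.04). In the miR-23b line against the control line, 0 members were higher and 2 lower, at adjusted p under 0.05 in edgeR's quasi-likelihood test with Benjamini-Hochberg adjustment over all 14866 genes, the test behind every call here. Of all genes, 3.59% were higher and 2.78% lower. In the miR-137 line the counts were also 0 and 2, where 1.89% of all genes were higher and 0.814% lower. Both pairs were Cenpa, the histone variant that marks centromeres, and Incenp, the scaffold of the chromosomal passenger complex. Cenpa read 170, 165 and 164 CPM in the untreated control libraries, 152, 140 and 142 in the miR-23b line and 145, 151 and 156 in the miR-137 line, so that both miRNA lines lay below the control line. The differences were -0.20 ± 0.04 (log2, SE, adjusted p = 0.000774) and -0.14 ± 0.04 (adjusted p = 0.0319). Incenp was -0.10 ± 0.03 and -0.15 ± 0.03 (adjusted p = 0.047 and 0.00604). In the miR-23b line the Incenp call was lost without control no DOX 2 or 3 or miR-23b no DOX 1 or 2, and in the miR-137 line the Cenpa call was lost without any 1 control library or miR-137 no DOX 1 or 2. With a second rule that also asks for a log2 difference of at least 0.32 in size, 0 members were called in either line, against 1.27% and 0.652% of all genes. Both comparisons use the same 3 untreated control libraries.

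In the control line, which carries no miRNA insert, 7 d of DOX went with higher RNA of most mitotic genes. Of the 42, 27 rose and 2 fell, where 18.5% of all genes rose and 19.3% fell. The median change of the members was 0.146 (log2) and that of all genes tested 0.0077. The rises were small. Under the second rule, log2 0.32 or more, 1 member was left, Ccnf, against 15.2% of all genes. On the deposited TPM values, 24 members were higher and 0 lower, and with upper quartile scaling the split was 33 to 1.

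Among the genes of mitotic entry in the control line, 5 of 8 rose and 1 fell. Ccnf, whose product directs ubiquitin ligase to its targets in G2, read 97.5, 97.1 and 92.6 CPM without DOX and 127, 131 and 124 with it. The groups stood apart, at 1.33-fold (log2 0.41 ± 0.04 SE, adjusted p = 7.34e-12). Cdk1 read 239, 233 and 244 CPM without DOX and 274, 279 and 265 with it. Ccna2, cyclin A2, read 481, 484 and 494 CPM without DOX and 579, 558 and 554 with it. Both rose with no overlap of the groups. Ccnb1, cyclin B1, went the other way, from 127, 132 and 133 to 121, 117 and 124 CPM (log2 -0.11 ± 0.04, adjusted p = 0.0208). That call was lost when control no DOX 3 or control 7 d DOX 2 was left out.

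The kinases and chromosomal passengers rose in 5 of 7 in the control line, and fell in 0. Aurkb, the kinase of the passenger complex, read 160, 168 and 164 CPM without DOX and 184, 197 and 189 with it. Incenp read 258, 266 and 268 and then 301, 304 and 301. Birc5 (survivin) read 126, 132 and 136 and then 148, 149 and 148. These 3 proteins bind each other, and each of their RNAs stood apart between the groups. Aurka, the centrosomal Aurora kinase, read 158, 152 and 160 CPM and then 156, 156 and 153, with overlapping groups (log2 -0.02, adjusted p = 0.72). Plk1, the Polo kinase, read 149, 147 and 146 CPM and then 152, 154 and 155, which did not pass the test (log2 0.06).

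Of the genes of the spindle checkpoint and anaphase onset, 3 of 7 rose and 0 fell in the control line. Mad2l1, which inhibits CDC20, read 185, 182 and 189 CPM without DOX and 221, 214 and 214 with it (log2 0.22, adjusted p = 4.57e-07). Bub1b (BUBR1) read 151, 155 and 152 and then 170, 182 and 179 (log2 0.22, adjusted p = 1.89e-06). Cdc20, the activator that the checkpoint holds, read 268, 265 and 267 and then 264, 266 and 265, with overlapping groups (log2 -0.01, adjusted p = 0.82). Of the kinetochore genes 3 of 6 rose and 1 fell, Spc25 being the one that fell. The kinesin and spindle genes rose in 4 of 6, among them Kif22, a chromosome-arm kinesin, from 143, 146 and 147 CPM to 171, 168 and 167 (log2 0.21, adjusted p = 3.41e-06). The midzone and cytokinesis genes rose in 5 of 6, and Top2a and Mki67 both rose. Mki67 read 2703, 2582 and 2674 CPM without DOX and 2886, 2878 and 2958 with it, and Top2a read 1677, 1630 and 1684 and then 1933, 1926 and 1927. The groups did not overlap for either gene.

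**Figure D3:**
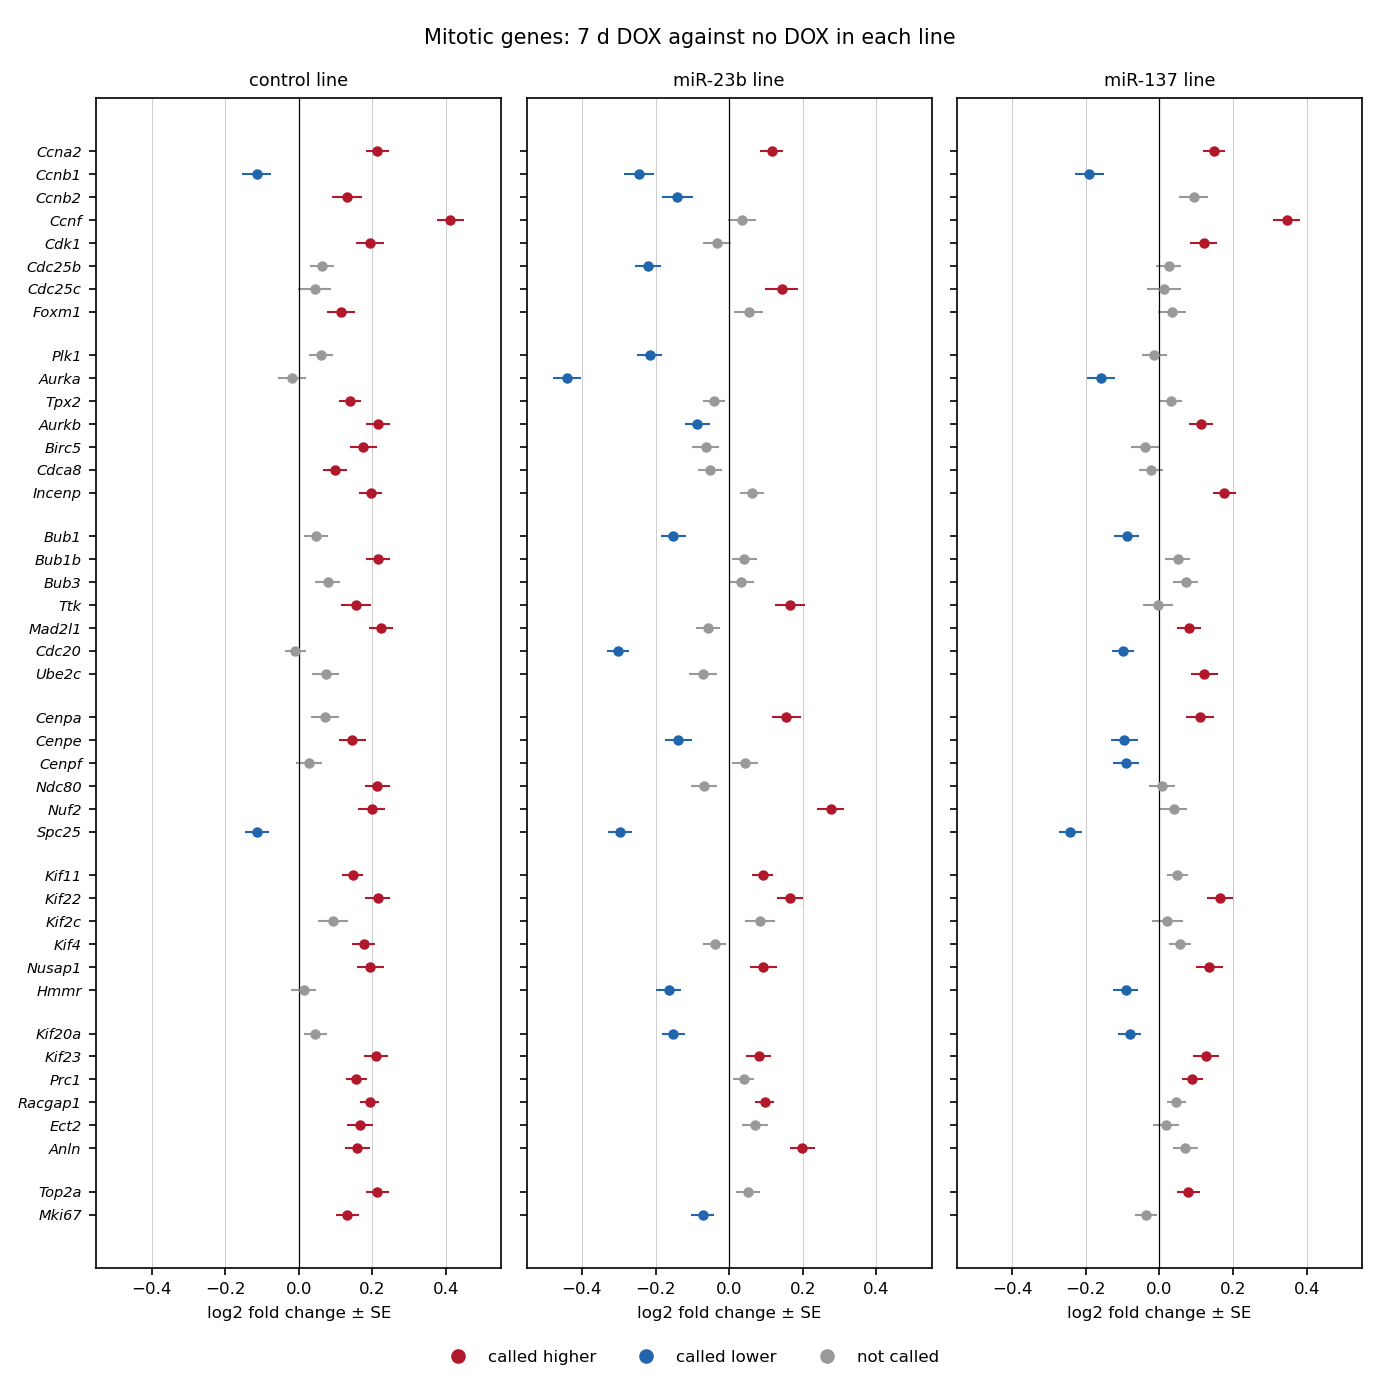
Log2 fold change with its SE (horizontal axis) of each of the 42 mitotic genes (vertical axis, grouped by role) at 7 d DOX against no DOX in the control, miR-23b and miR-137 lines; red is called higher, blue called lower and grey not called. In the control line 27 points are red, while in the miR-23b line 13 are blue, led by Aurka at -0.44.

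In the miR-23b line, DOX split the mitotic genes. Of the 42, 11 rose and 13 fell, where 28.8% of all genes rose and 28.6% fell. The median change was -0.0005131 (log2), against 0.0084 over all genes. The second rule left 1 member, Aurka, against 30.3% of all genes. The scale mattered in this comparison. On the deposited TPM values 21 members were higher and 5 lower, and with upper quartile scaling 14 and 11. Of all genes called on TPM in this comparison 65.0% were higher, against 50.2% on counts. The members' median less that of all genes was 0.005419 on TPM and -0.008899 on counts.

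Of the 13 that fell in the miR-23b line, the 5 with the lowest ratios were Aurka, Cdc20, Spc25 (whose values are given further on), Ccnb1 and Cdc25b. Aurka read 152, 151 and 158 CPM without DOX and 115, 112 and 112 with it. All 3 libraries with DOX lay below all untreated ones, at 0.7367-fold (log2 -0.44 ± 0.04 SE, adjusted p = 1.34e-12). Cdc20 read 266, 264 and 266 CPM and then 213, 213 and 220 (log2 -0.30 ± 0.03, adjusted p = 2e-11). Plk1 read 143, 140 and 145 CPM and then 124, 119 and 126 (log2 -0.22 ± 0.03, adjusted p = 7.08e-07). Cdc25b, the phosphatase that starts CDK1 activation, read 147, 142 and 153 CPM and then 119, 128 and 132 (log2 -0.22). Each of the 4 stood apart between the groups, and each was also called lower on TPM, at -0.32 for Aurka, -0.17 for Cdc20, -0.09 for Plk1 and -0.12 for Cdc25b.

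Ccnb1, among the 5, and other members also fell in the miR-23b line. Ccnb1 read 124, 129 and 131 CPM without DOX and 112, 103 and 109 with it (log2 -0.25, adjusted p = 2.31e-06). Ccnb2, cyclin B2, read 85.8, 85.4 and 91.0 and then 82.4, 77.6 and 77.6. Bub1, the checkpoint kinase, read 147, 145 and 152 and then 133, 138 and 128. Cenpe, the kinesin that moves chromosomes to the spindle equator, fell by 0.14 on the log2 scale, Kif20a, a midzone kinesin, by 0.15 and Hmmr, a spindle pole protein, by 0.16. On TPM the falls of Ccnb1 (-0.07), Ccnb2 (-0.02) and Cenpe (-0.08) did not pass the test. Bub1, Kif20a and Hmmr were not called lower on TPM either. Aurkb (log2 -0.09, adjusted p = 0.025) and Mki67 (log2 -0.07, adjusted p = 0.0391) were called lower on counts, and both had the other sign on TPM, at 0.03 and 0.05. Both calls were also lost without miR-23b no DOX 3, miR-23b 7 d DOX 1 or miR-23b 7 d DOX 2, that of Aurkb without miR-23b no DOX 2 and that of Mki67 without miR-23b no DOX 1.

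Of the 11 members that rose in the miR-23b line, Nuf2 rose most. Nuf2, which forms the microtubule-binding head of the NDC80 complex with Ndc80, read 122, 119 and 117 CPM without DOX and 147, 148 and 139 with it (log2 0.28 ± 0.04 SE, adjusted p = 3.44e-08). Its partner Ndc80 read 118, 117 and 122 CPM and then 115, 115 and 110, which did not pass the test (log2 -0.07, adjusted p = 0.0952). So 2 subunits of the same complex were on different sides of the test here. Anln, the actin-binding protein of the cleavage furrow, read 187, 185 and 185 CPM and then 222, 209 and 209 (log2 0.20). Kif22 read 138, 138 and 135 and then 152, 152 and 158 (log2 0.17), and Ttk, the checkpoint kinase MPS1, read 56.2, 56.3 and 54.4 and then 63.2, 62.1 and 61.7 (log2 0.16). In these 3 the groups stood apart, while those of Cenpa, Cdc25c and Kif23 overlapped although the test called them higher, Cenpa reading 151, 167 and 165 CPM with DOX. By role, the kinases and passengers had 0 of 7 higher and 3 lower, and the kinesin and spindle genes 3 of 6 higher and 1 lower.

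The responses of members with and without a seed match are set side by side here, with no test made. Of the 14 members with a match to miR-27b-3p or miR-24-3p, 3 rose and 3 fell in the miR-23b line, with a median of 0.00077 (log2). Of the 28 without one, 8 rose and 10 fell, with a median of -0.003295. For the difference from the control response, described further on, 9 of the 14 were lower with a median of -0.2041, and 18 of the 28 with a median of -0.1477. Cdc20 and Spc25, which fell, held no match to miR-27b-3p or miR-24-3p. Matches to miR-23b-3p were not searched, so members counted as without a match may hold one to it. Cdk1, which holds 1 miR-27b-3p and 3 miR-24-3p matches, read 247, 233 and 244 CPM without DOX and 250, 231 and 225 with it, with overlapping groups (log2 -0.03).

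In the miR-137 line, DOX went with 13 members higher and 9 lower, where 21.0% of all genes were higher and 21.8% lower. The median change was 0.03619 (log2). Only Ccnf, 1 member, met the second rule, against 18.2% of all genes. On TPM the split was 9 higher to 8 lower and with upper quartile scaling 18 to 4. Ccnf read 91.6, 91.9 and 93.1 CPM without DOX and 115, 119 and 118 with it, with no overlap (log2 0.35 ± 0.04 SE, adjusted p = 5.48e-10). Incenp read 237, 236 and 242 and then 272, 270 and 266 (log2 0.18), and Ccna2 read 488, 455.9 and 476 and then 527, 520 and 526 (log2 0.15). Kif22 read 139, 131 and 135 and then 158, 153 and 142 (log2 0.17), and Nusap1, which bundles spindle microtubules, read 267, 264 and 274 and then 301, 293 and 289 (log2 0.14). All 5 stood apart between the groups, and all 5 had also risen in the control line.

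The members that fell in the miR-137 line were led by Spc25 and Ccnb1. Ccnb1 read 132, 126 and 136.8 CPM without DOX and 113, 114 and 119 with it (log2 -0.19, adjusted p = 0.00016). Aurka read 153, 148 and 158 and then 140, 139 and 131 (log2 -0.16, adjusted p = 0.000644), and Cdc20 read 270, 257 and 257 and then 248, 242 and 242 (log2 -0.10, adjusted p = 0.00514). The groups stood apart for each, and without miR-137 no DOX 1 the call of Cdc20 was lost (log2 -0.07). Mki67 read 2687, 2649 and 2712 CPM and then 2641, 2619 and 2591, which did not pass the test (log2 -0.04). The 3 members with a match to miR-137-3p were Birc5, Mad2l1 and Nusap1, of which 2 were higher and 0 lower. Birc5, with 2 such matches, read 120, 123 and 129 CPM and then 124, 122 and 116, with overlapping groups. Cenpe read 226, 237 and 245 CPM and then 224, 224 and 214 (log2 -0.10), a call lost in 4 fits that left out 1 library.

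**Figure D4:**
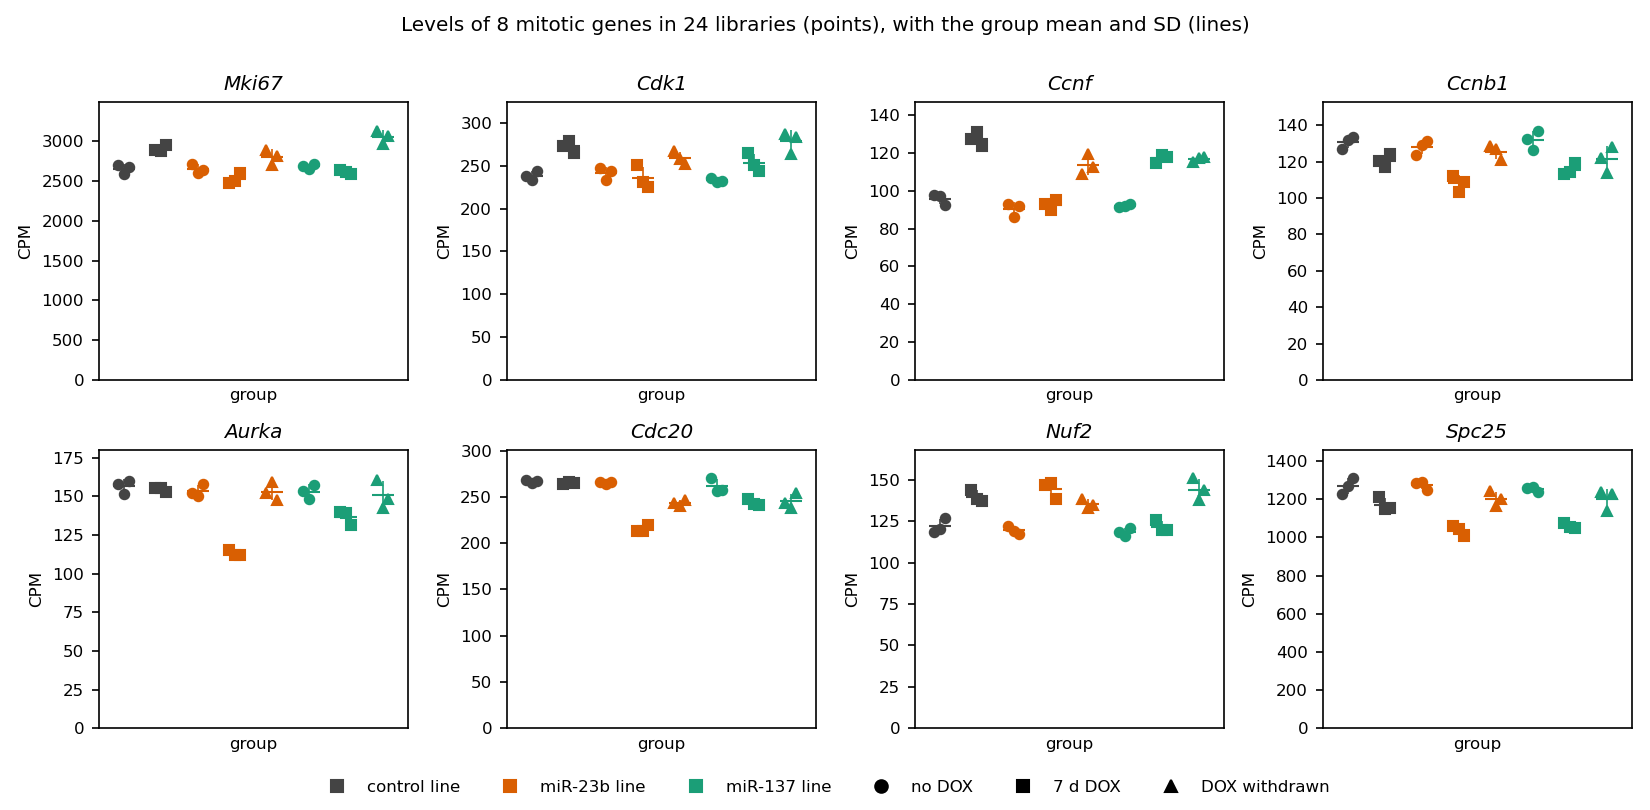
CPM (vertical axes, from 0) of 8 mitotic genes in 24 libraries (points), ordered by group along the horizontal axis, with the group mean and SD as lines; colours mark the line and symbols the treatment. Aurka is lowest in the miR-23b line at 7 d DOX, at 112 to 115 CPM, and Ccnf in the control line goes from 92.6 to 97.5 CPM without DOX to 124 to 131 with it.

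Since DOX alone went with higher mitotic RNA in the control line, the response of each miRNA line was tested against the control response, as a difference of log2 changes. Against the control response, the response of the miR-23b line was lower for 27 members and higher for 0. Of all genes, 18.1% were higher and 19.4% lower. The median difference was -0.1567 (log2). Of the 27, 2 members met the second rule, Ccnf and Aurka, against 20.5% of all genes. On TPM 11 were lower and 5 higher, where 67.1% of all genes called were higher, against 48.3% on counts. The fits share the 6 control libraries.

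All 7 kinases and passengers had a lower response in the miR-23b line than in the control line on counts. On TPM, Aurka, Aurkb, Plk1 and Birc5 kept that call, while Incenp (-0.13 on counts), Tpx2 and Cdca8 were not called lower. Aurka differed by -0.42 ± 0.05 (log2, SE, adjusted p = 4.69e-08), Aurkb by -0.30 (adjusted p = 1.91e-06), Plk1 by -0.28 (adjusted p = 8.54e-06) and Birc5 by -0.24. They reached that difference in unlike ways. Aurkb rose in the control line and went from 152, 153 and 154 CPM to 142, 144 and 146 in the miR-23b line. Aurka and Plk1 fell in the miR-23b line and did not pass the test in the control line, while Birc5 rose in the control line and did not pass the test in the miR-23b line, reading 122, 116 and 126 CPM without DOX and 114, 120 and 113 with it. Of the entry genes 4 of 8 were lower, led by Ccnf (-0.38 ± 0.05, adjusted p = 3.52e-07), which read 92.9, 85.9 and 92.2 CPM without DOX and 92.9, 89.7 and 94.9 with it in the miR-23b line, and by Cdc25b and Ccnb2 (-0.27). Of the checkpoint genes 5 of 7 were lower, among them Cdc20 (-0.29) and Mad2l1 (-0.28), and of the kinetochore genes 3 of 6, among them Cenpe (-0.28) and Ndc80 (-0.28). Cenpe read 243, 234 and 242 CPM without DOX and 268, 259 and 269 with it in the control line, and 255, 246 and 237 and then 222, 228 and 220 in the miR-23b line, so the groups stood apart in both lines, in opposite directions. The kinesins and spindle genes had 2 of 6 lower and the midzone genes 4 of 6, and Top2a and Mki67 were both lower. The 15 members that did not pass the test included Ccnb1 (-0.13), Foxm1, a transcription factor of the G2 wave (-0.06), and Nuf2 (0.08), which was called higher on TPM (0.23). On TPM the differences of Aurka (-0.31), Ccnf (-0.25), Aurkb (-0.21) and Cdc20 (-0.18) were still called, and those of Cdk1 (-0.08), Mki67 (-0.09), Top2a (-0.02), Bub1b (-0.11), Spc25 (-0.06) and Incenp (-0.03) were not.

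For the miR-137 line the difference from the control response was lower in 10 members and higher in 0, where 5.90% of all genes were higher and 4.78% lower. The median difference was -0.1003 (log2). The second rule left 0 members, against 4.37% of all genes. The 10 were Cenpe (-0.24, adjusted p = 0.00172), Birc5 (-0.21), Ndc80 (-0.21), Mki67 (-0.17), Bub1b (-0.17), Nuf2 (-0.16), Ect2, the exchange factor that starts cytokinesis, Racgap1 (-0.15), Mad2l1 (-0.14) and Top2a (-0.13). Ndc80 read 122, 119 and 120 CPM without DOX and 139, 142 and 137.5 with it in the control line, and 119, 116 and 117 and then 124, 114 and 116 in the miR-137 line. Bub1b read 147, 145 and 154 and then 151, 152 and 158 in the miR-137 line. For both genes the groups were apart in the control line and overlapped in the miR-137 line. Of the 8 entry genes and the 6 kinesin and spindle genes, 0 passed. This count was not firm. It fell to 5 or 6 when any 1 of 8 libraries was left out, namely control no DOX 1 or 2, control 7 d DOX 2 or 3, miR-137 no DOX 1 or 3, or miR-137 7 d DOX 2 or 3, and it was 4 without the filter on low counts. On TPM 12 members were lower and 0 higher, but not the same ones, since Cenpe (-0.16), Bub1b (-0.17), Nuf2 (-0.14) and Mad2l1 (-0.15) did not pass the test there.

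The 2 miRNA lines were also set against each other, which uses no control library. The miR-23b response was lower than the miR-137 response for 11 members and higher for 4, where 18.4% of all genes were lower and 16.8% higher. By the second rule there were 0 members, against 18.9% of all genes. On TPM 2 were lower and 11 higher, so that the split turned with the scale. The calls over all genes moved the same way, with 71.4% higher on TPM and 47.7% on counts. The members' median less that of all genes was -0.02817 on TPM and -0.04593 on counts. The 11 on counts were Ccnf (-0.31 ± 0.05, adjusted p = 1.24e-05), Aurka (-0.28 ± 0.05, adjusted p = 6.71e-05), Cdc25b (-0.25), Ccnb2 (-0.23), Cdc20, Plk1, Aurkb (-0.20), Ube2c, the ubiquitin-conjugating enzyme of the APC/C (-0.19), Cdk1 (-0.15), Mad2l1 (-0.14) and Incenp (-0.11). Cdc25b in the miR-137 line read 141, 141 and 144 CPM without DOX and 147, 147 and 140 with it, Ccnb2 90.1, 87.0 and 83.5 and then 95.4, 93.5 and 88.8, and neither passed the test there. On TPM, Ccnf (-0.18) and Aurka (-0.13) were still called lower, Cdc20 (-0.05), Plk1 (-0.08) and Aurkb (-0.07) were not, and Cdk1 and Incenp had the other sign. The 4 with a higher response were Nuf2 (0.24 ± 0.05, adjusted p = 0.000388), Ttk (0.17), Cenpf and Anln (0.13). Nuf2 read 119, 116 and 121 CPM and then 126, 120 and 120 in the miR-137 line, and Ttk 58.0, 57.6 and 57.2 and then 57.0, 57.9 and 57.5. The groups overlapped for both, where they had stood apart in the miR-23b line. Cenpf read 533, 527 and 526 and then 559, 543 and 531 in the miR-23b line, against 523, 530 and 555 and then 516, 494 and 500 in the miR-137 line, and Anln read 191, 183 and 193 and then 204, 194 and 198 in the miR-137 line. On TPM all 4 kept their calls. The calls of Anln and Cenpf were each lost in 7 fits that left out 1 library of either line, and that of Ttk without miR-23b no DOX 3.

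After withdrawal of DOX most mitotic RNAs were higher than at 7 d DOX in the miR-137 line, on counts and on TPM. In the miR-23b line this held on counts only, although the members' median lay above that of all genes on both scales. In the miR-137 line 30 members rose and 0 fell, where 14.7% of all genes rose and 14.8% fell, with a median of 0.1394 (log2). Bub1 was the 1 member to meet the second rule, against 7.56% of all genes. Bub1 read 142, 139 and 143 CPM at 7 d DOX and 180, 173 and 178 after withdrawal, with no overlap (log2 0.32, adjusted p = 1.1e-09). Mad2l1 read 202, 187 and 196 and then 243, 229 and 241, and Ndc80 read 124, 114 and 116 and then 145, 135 and 141. Ccnf and Plk1 did not pass the test, Ccnf reading 115, 117 and 118 after withdrawal and Plk1 140, 139 and 139. On TPM 25 rose and 0 fell.

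In the miR-23b line, withdrawal went with 26 members higher and 1 lower than at 7 d DOX, where 26.4% of all genes were higher and 25.8% lower, with a median of 0.1206 (log2). Aurka was the 1 member to meet the second rule, against 24.5% of all genes. Aurka read 152, 159 and 148 CPM after withdrawal, at 1.353-fold its level at 7 d DOX (log2 0.44 ± 0.04 SE, adjusted p = 3.43e-12). Ccnf read 109, 120 and 113 CPM (log2 0.30) and Mad2l1 read 223, 211 and 211 (log2 0.28), each apart from the libraries at 7 d DOX. The 1 that fell was Nuf2, at 139, 133 and 135 CPM (log2 -0.10, adjusted p = 0.0266), a call lost without miR-23b 7 d DOX 1 or 2 or miR-23b DOX withdrawn 2 or 3. On TPM the split was 10 higher to 13 lower, so the direction of the group as a whole in this comparison depended on the scale. The calls over all genes moved the same way, with 31.0% higher on TPM and 50.6% on counts. The members' median less that of all genes was 0.07157 on TPM and 0.1188 on counts. Aurka (0.29), Ccnf (0.18) and Mad2l1 (0.18) were called higher on TPM too.

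Against the untreated cultures, the withdrawn ones also held more mitotic RNA, and these comparisons do not hold culture age equal. In the miR-23b line 22 members were higher and 4 lower, where 19.2% of all genes were higher and 20.6% lower. The median difference was 0.09408 (log2), and on TPM the split was 19 to 3. The 1 member that met the second rule was Ccnf, against 16.2% of all genes. Aurka was back at its untreated level within the error (log2 -0.00 ± 0.04, adjusted p = 0.938), whereas Cdc20 read 243, 240 and 246 CPM against 266, 264 and 266 (log2 -0.13, adjusted p = 0.000618) and Plk1 read 125, 136 and 136 against 143, 140 and 145 (log2 -0.11, lost without miR-23b no DOX 3 or miR-23b DOX withdrawn 1). Both groups of libraries stood apart. In the miR-137 line 35 members were higher and 2 lower, where 21.6% of all genes were higher and 21.7% lower. The median difference was 0.1882 (log2), and on TPM the split was 26 to 1. Ccnf and Mad2l1 (2 members) met the second rule, against 17.5% of all genes.

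The rise in the withdrawn miR-137 line ran through every role. All 6 kinesin and spindle genes, all 6 midzone genes, both chromosome genes, 6 of 8 entry genes, 6 of 7 checkpoint genes, 5 of 7 kinases and passengers and 4 of 6 kinetochore genes were higher than without DOX. Mad2l1 read 186, 182 and 186 CPM without DOX against 243, 229 and 241 (log2 0.36 ± 0.03 SE, adjusted p = 3.04e-12). Ccna2 read 488, 455.9 and 476 against 576, 580 and 613 (log2 0.32), and Mki67 read 2687, 2649 and 2712 against 3132, 2966 and 3069. None of these groups overlapped. The 2 that were lower were Cdc20 (log2 -0.09), at 244, 238 and 254 CPM, and Ccnb1 (log2 -0.12), at 122, 114 and 128 CPM, whose groups overlapped. The first call was lost without miR-137 no DOX 1 or miR-137 DOX withdrawn 2, and the second without miR-137 no DOX 3 or miR-137 DOX withdrawn 2.

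Foxm1, whose product drives part of the mitotic wave, rose on counts in the control line with DOX and in the miR-137 line after withdrawal. It read 183, 168 and 168 CPM in the untreated control line and 185, 189 and 189 with DOX (log2 0.12), a call lost in 4 of the fits that left out 1 library (control no DOX 2 or 3, control 7 d DOX 2 or 3). Its values in the miR-23b line were 164, 157 and 169 untreated, 165, 164 and 179 with DOX and 152, 163 and 167 after withdrawal. These 3 groups overlapped in CPM. On TPM the control rise did not pass the test (0.11). In the miR-23b line Foxm1 was called higher on TPM with DOX (0.16), and lower after withdrawal than at 7 d DOX (-0.15). Its values in the miR-137 line were 159, 161 and 163 untreated, 162, 163 and 170 with DOX and 182, 196 and 191 after withdrawal, so that only the withdrawn libraries stood apart.

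The other members with values fixed for every library were these. Mki67 read 2718, 2602 and 2637 CPM in the untreated miR-23b line, 2470, 2502 and 2597 with DOX and 2896, 2696 and 2813 after withdrawal, so that the DOX libraries were lowest and the withdrawn ones overlapped the untreated ones. Top2a read 1655, 1635 and 1649 CPM in that line, then 1744, 1691 and 1681 with DOX and 1971, 1855 and 1871 after withdrawal. Top2a in the miR-137 line read 1638, 1576 and 1632 CPM, then 1710, 1696 and 1711 with DOX and 2111, 1886 and 1996 after withdrawal. The 3 treatments did not overlap in CPM for Top2a in either line. Its change with DOX in the miR-23b line did not pass the test on counts (log2 0.05) and was called higher on TPM (0.18). In that line its change from 7 d DOX to withdrawal did not pass the test on TPM (0.03). Cdk1 read 267, 257 and 252 CPM in the withdrawn miR-23b line. Cdk1 in the miR-137 line read 235, 232 and 232 untreated, 265, 251 and 244 with DOX and 288, 264 and 284 after withdrawal. The last 2 of these groups overlapped, and both lay above the untreated libraries. Aurkb read 159, 159 and 155 CPM in the withdrawn miR-23b line. It read, in the miR-137 line, 151, 152 and 161 untreated, 169, 164 and 169 with DOX and 181, 192 and 184 after withdrawal, with no overlap between the 3. Ccnb1 read 128, 127 and 121 CPM in the withdrawn miR-23b line, within the range of 124 to 131 of the untreated libraries except for the lowest.

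**Figure D5:**
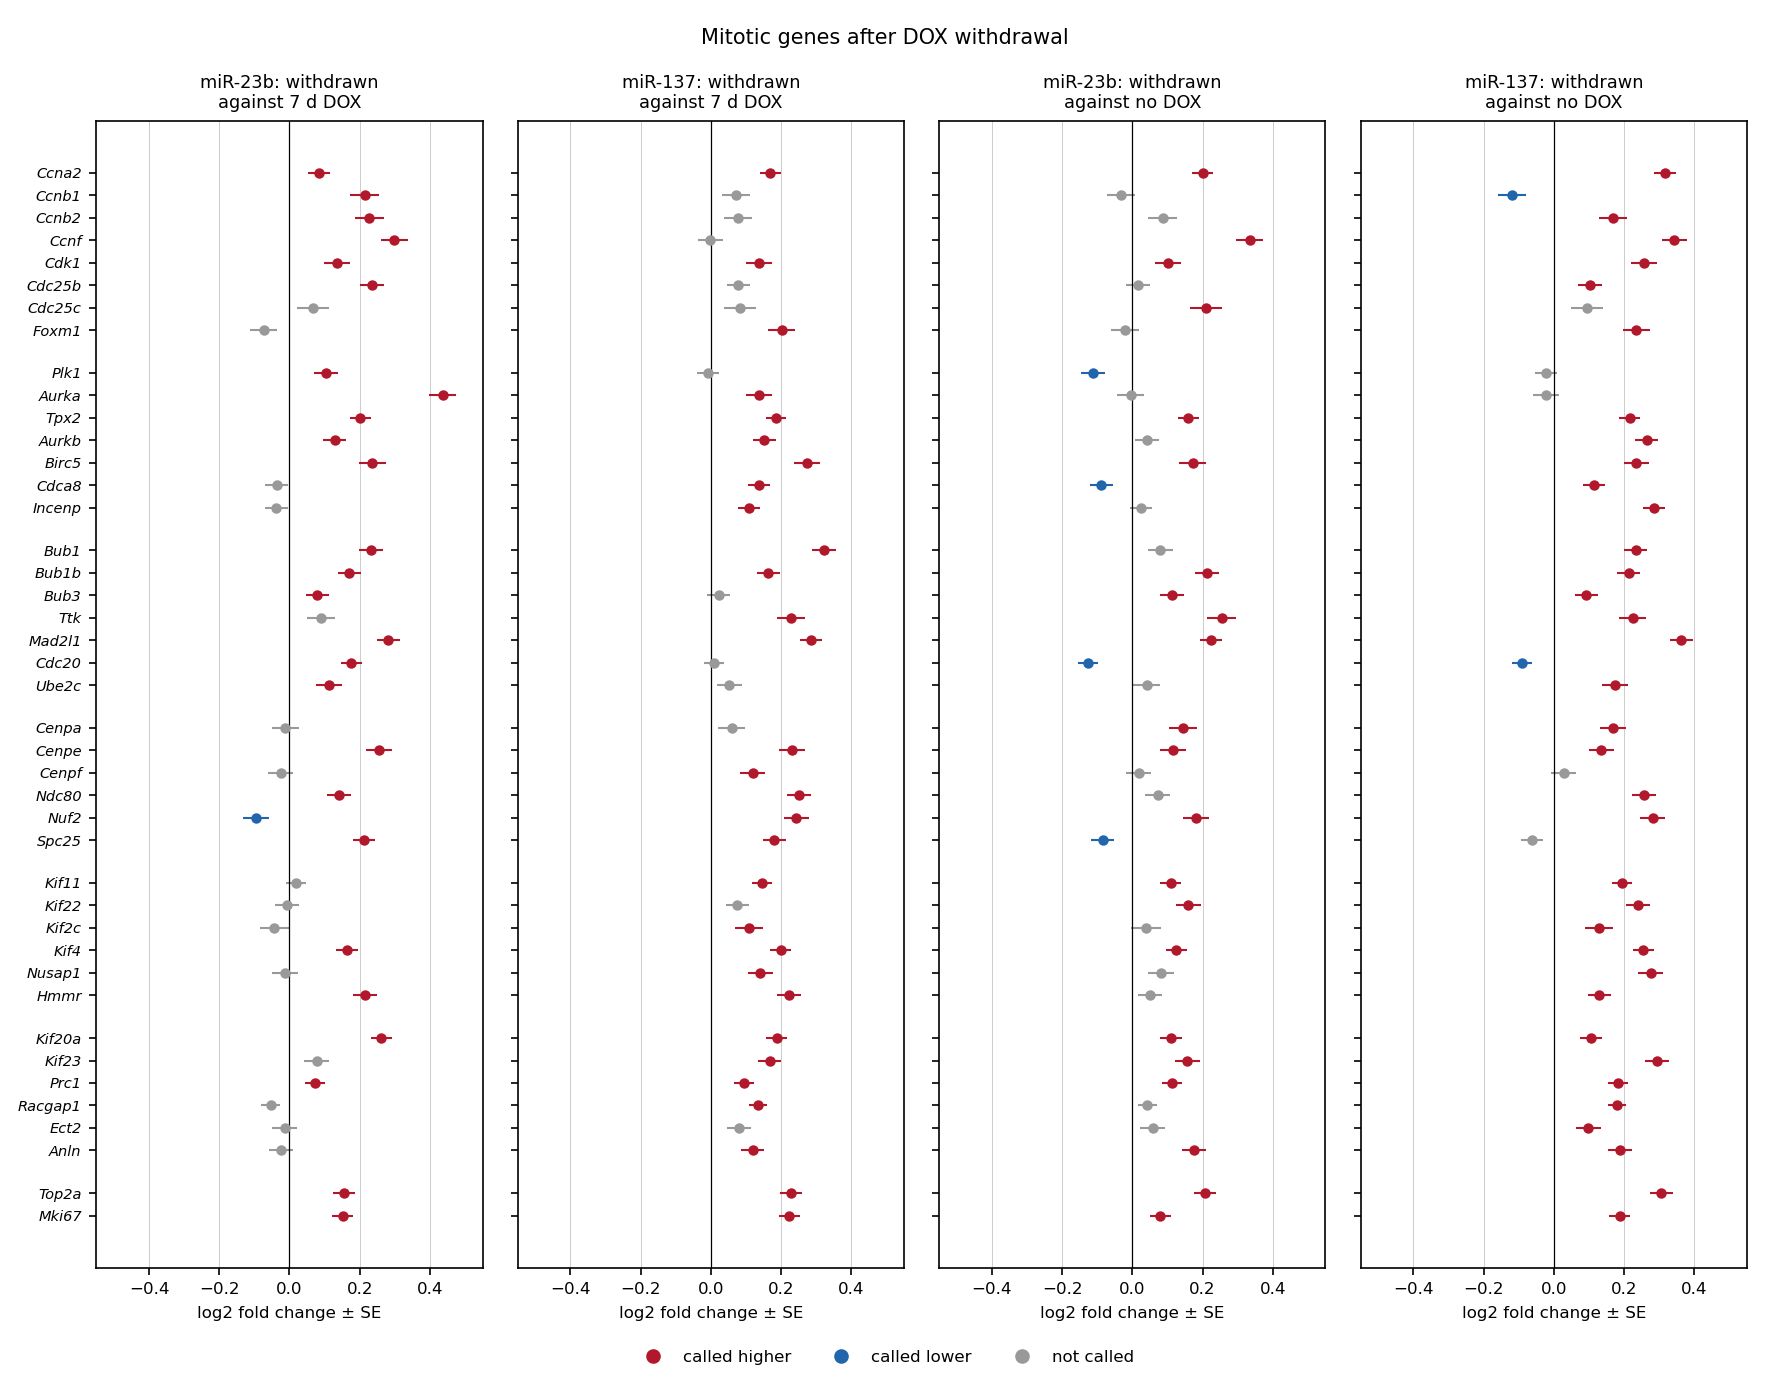
Log2 fold change with its SE (horizontal axis) of each of the 42 mitotic genes (vertical axis, grouped by role) in withdrawn cultures, set against cultures at 7 d DOX and then against untreated ones, in the miR-23b and miR-137 lines; red is called higher, blue called lower and grey not called. In the miR-137 line 30 points are red against 7 d DOX and 35 against no DOX.

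Spc25 stood apart from the other NDC80 complex genes in level and in direction. It read 1229, 1268 and 1308 CPM in the untreated control line and 1213, 1149 and 1154 with DOX. In the miR-23b line it read 1285, 1288 and 1250 and then 1061, 1043 and 1008, and in the miR-137 line 1259, 1264 and 1236 and then 1075, 1054 and 1051. It fell in all 3 lines, by 0.11, 0.30 and 0.24 on the log2 scale, and the fall was larger in the miR-23b line than in the control line (difference -0.18 ± 0.05, adjusted p = 0.00165). On TPM neither the control fall (-0.06) nor that difference (-0.06) passed the test. In the untreated control line its deposited TPM was 2819.6, against 102.83 for Nuf2, 27.077 for Ndc80 and 8.7833 for Spc24, which all encode subunits of the same complex. Spc24, its direct partner, rose in all 3 lines (log2 0.61, 0.61 and 0.73). The gene lies at chr2:69193895-69206194 (-). The next protein-coding gene towards higher coordinates is G6pc2, an islet glucose-6-phosphatase, which starts 4878 bases away on the other strand. G6pc2, looked at after its values were seen, fell in the same 3 comparisons, by 0.46, 0.73 and 0.65 on the log2 scale. Whether reads or transcripts of the one gene are counted in the other was not tested.

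Genes of the same pathways outside the 42 were counted from lists of their own. Of 72 further mitosis genes, 48 rose and 2 fell with DOX in the control line, 26 rose and 18 fell in the miR-23b line, and 24 rose and 6 fell in the miR-137 line. Over all genes the shares that rose and fell were 18.5% and 19.3%, 28.8% and 28.6%, and 21.0% and 21.8% in these 3 lines. The difference from the control response was lower for 28 and higher for 6 of them in the miR-23b line, and lower for 10 and higher for 1 in the miR-137 line, where 19.4% of all genes were lower and 18.1% higher, and 4.78% lower and 5.90% higher. After withdrawal, against 7 d DOX, 38 rose and 9 fell in the miR-23b line and 55 rose and 1 fell in the miR-137 line, against 26.4% and 25.8%, and 14.7% and 14.8%, of all genes. Without DOX, 10 of the 72 were lower and 0 higher in the miR-23b line than in the control line, against 2.78% and 3.59% of all genes. In the untreated miR-137 line 6 were lower and 0 higher, against 0.814% and 1.89%. Zwint, a kinetochore protein that recruits the ROD-ZW10 complex, had the lowest ratio among them in the miR-23b line, going from a mean of 319 to 138.4 CPM (log2 -1.20 ± 0.03 SE, adjusted p = 1.68e-27) and rising again after withdrawal to 316 (log2 1.19). Psrc1, a spindle protein, rose in that line from 23.73 to 37.5 CPM (log2 0.65). These sizes lie outside the range of the 42, whose lowest change in that comparison was -0.44 and whose highest was 0.28.

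Genes that run before and around the mitotic wave were counted the same way. Over all genes, 28.8% rose and 28.6% fell with DOX in the miR-23b line, 18.5% and 19.3% in the control line, and 21.0% and 21.8% in the miR-137 line. Of 33 DNA replication and G1/S genes, 5 rose and 23 fell in the miR-23b line, with a median of -0.21 (log2), and the difference from the control response was lower for 22 and higher for 2, against 19.4% and 18.1% of all genes. In the control line 19 of them rose and 4 fell, and in the miR-137 line 8 rose and 10 fell. Of a list of 9 genes, made up of CDK inhibitor genes with Rb1 and Ccng1, 4 rose and 3 fell in the miR-23b line. Ccng1 (log2 0.40) and Rb1 (log2 0.24), which are not CDK inhibitor genes, were among those that rose. Cdkn1a, the CDK inhibitor p21, rose there by 0.92 (log2) and fell again by 1.19 after withdrawal, while its rise in the miR-137 line was 0.34. The 3 that fell in the miR-23b line were other inhibitor genes, Cdkn2b (log2 -0.45), Cdkn1b (-0.38) and Cdkn2a (-0.38). Of 12 genes of the MuvB, DREAM and B-MYB group, 3 rose and 2 fell in the control line and 5 rose and 5 fell in the miR-23b line. Mybl2, which encodes B-MYB, rose in the control line from 59.89 to 82.6 CPM (log2 0.46), and its response in the miR-23b line was lower than that by 0.33 (adjusted p = 4.83e-05). Of 17 APC/C genes, 6 rose and 0 fell in the control line and 5 rose and 3 fell in the miR-23b line, Ube2s, which extends ubiquitin chains for the APC/C, being lower by 0.45 there.

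Some members share exonic sequence with a gene on the other strand, and the sources used here do not give whether the counting used strand. The shares of their exonic bases were 29.3% for Kif20a with Cdc23, 22.8% for Ube2c with Tnnc2, 15.1% for Kif4 with Pdzd11, 12.7% for Cdc25c with Gm3550, 12.5% for Ccna2 with Exosc9 and 11.1% for Prc1 with Rccd1. Reads of these pairs may not be separable.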

How the data were processed

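Messenger RNA was sequenced from 24 libraries of 8 groups (stranded polyA libraries from Trizol RNA, per the labels). The authors deposited raw read counts per gene and a table read here as TPM, since its columns sum to between 999999.3 and 1000001.3, per the file's values. Tools in the submitters' processing notes are STAR 2.4.0g, RSEM 1.2.19, featureCounts, HTSeq 0.6.1 and cutadapt 1.3, with the builds mm10 and GRCm38. The sources used here do not give which tool made which table, nor the strand setting. Symbols are from GENCODE M21 (46005 of 46517 entries). Reads outside annotated genes (9.62% to 12.1%) and not uniquely placed (25.4% to 27.7%) were left out.

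The counts were fitted with edgeR 4.0.16 (quasi-likelihood, TMM scaling, filterByExpr, 8 group means, 16 residual degrees of freedom, common biological coefficient of variation 2.998%) in R 4.3.3. A call is an adjusted p below 0.05 over 14866 genes; SE is the log2 change over the square root of F. CPM are of TMM-scaled libraries. Library values are given for Mki67, Top2a, Cdk1, Ccnb1, Plk1, Aurkb, Foxm1, Ccnf and the 5 members with the highest and the 5 with the lowest called changes in each DOX comparison and each difference between responses; from the other lists, up to 3 called genes each way. The members and lists were chosen with earlier results of these data known. Alternatives were RLE and upper quartile scaling, no or a stricter filter, a replicate block, only the groups compared, each library left out, DESeq2 1.42.0, and limma 3.58.1 on log2(TPM + 0.1) or log2(TPM + 1). On data simulated for the control comparison, 50 of 14866 genes were changed at each fold size. Of these, 38% were recovered at 1.1-fold and 100% at 1.5-fold. Far more genes were called in the real comparison (2753 higher and 2871 lower), so these shares do not give its sensitivity. Replicate numbers did not pair libraries. No library pair of a group matched within sampling noise.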

Additional observations from a re-analysis of the deposited data

Results flagged for a closer look

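Each value here was singled out because the response to 7 d DOX differed between 2 lines in a test of that difference itself (edgeR's quasi-likelihood test, Benjamini-Hochberg adjusted). Between the miR-23b and control lines 27 of the 42 mitotic genes differed, with differences in log2 change of -0.42 for Aurka, -0.38 for Ccnf, -0.30 for Aurkb, -0.29 for Cdc20 and -0.28 for Cenpe. Between the miR-137 and control lines 10 differed, with -0.24 for Cenpe, -0.21 for Birc5, -0.21 for Ndc80, -0.17 for Mki67 and -0.17 for Bub1b. Between the miR-23b and miR-137 lines 15 differed. The highest were 0.24 for Nuf2, 0.17 for Ttk, 0.13 for Cenpf and 0.13 for Anln, and the lowest -0.31 for Ccnf, -0.28 for Aurka, -0.25 for Cdc25b, -0.23 for Ccnb2 and -0.20 for Cdc20. The first 2 comparisons share the control libraries.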

How the results depend on the processing

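Counts of called members stayed within 1.5 times the reported ones under both other scalings, both filters, the smaller fits and DESeq2, except where given here. For the miR-23b response against the control response, 27 calls became 16 on TPM at either pseudocount and 15 with no filter on TPM. For the miR-137 response against the control response, 10 became 4 with no filter on counts and 6 with none on TPM. For the miR-23b against the miR-137 response, 15 became 9 with no filter on TPM. Without DOX, the 2 calls of the miR-23b line became 1 with RLE scaling, 4 with upper quartile scaling, 4 with only the groups compared, 4 on TPM at either pseudocount and 1 with no filter, and the 2 of the miR-137 line became 1 on TPM in all 3 forms. The causes were not tested.

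On TPM some named members that were called on counts or on TPM changed sign (the range covers the pseudocounts). Members called on neither scale are not listed, such as Ndc80 with DOX in the miR-23b line (-0.07 on counts and 0.05 on TPM). With DOX in the miR-23b line these were Aurkb (0.03411 and 0.03396), Cdk1 (0.1221 and 0.1218) and Mki67 (0.04527 and 0.04495). For the miR-23b against the miR-137 response they were Cdk1 (0.03055 and 0.03049), Incenp (0.005124 and 0.005095), Spc25 (0.1225 and 0.1224) and Top2a (0.1003 and 0.1001). For withdrawal against 7 d DOX in the miR-23b line they were Aurkb (-0.02443 and -0.02431), Ccna2 (-0.04324 and -0.04313), Plk1 (-0.02518 and -0.02443) and Ttk (-0.1128 and -0.1107). Under the settings on counts, no named member that was called in either fit changed sign.

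Leaving out 1 library at a time gave 27 to 28 calls with DOX in the control line, 21 to 24 in the miR-23b line and 15 to 20 in the miR-137 line. It gave 22 to 27 and 5 to 10 for these 2 against the control response, 11 to 15 between them, and 1 to 3 for each miRNA line without DOX. Withdrawal gave 23 to 27 and 25 to 31 against 7 d DOX, and 20 to 26 and 33 to 36 against no DOX, in the miR-23b and miR-137 lines. At least 1 such fit took away the call of a named member in 41 pairs of member and comparison. Leaving out control no DOX 2 or 3 or miR-23b no DOX 1 or 2, and any control no DOX library or miR-137 no DOX 1 or 2, left 1 call in the comparisons without DOX.

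Same-numbered libraries deviated together with a correlation over 0.1 in 3 of 84 pairs (from -0.0661 to 0.1832), so the numbers were not taken as pairs. With the replicate number as a block the calls were 30, 24 and 22 for DOX in the control, miR-23b and miR-137 lines, 28, 11 and 15 for the differences, 28, 30, 26 and 37 after withdrawal, and 3 and 2 without DOX. A change near 1.1-fold was often missed in the simulated data, where far fewer genes changed than were called in the real control comparison.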
